A study of Homo sapiens with 6 samples.

Results

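This report covers 45 genes of DNA replication and S phase in human pancreatic ductal adenocarcinoma cells, with and without KDM6A. The genes were listed by name, with no value of theirs in the rule, and each was read from its brightest probe set over the 6 arrays. These genes and the lists used for comparison were, however, chosen with earlier results of these data known. All 45 had a probe set that the platform annotation ties to a single gene symbol, and all 45 were among the 14387 of 19775 genes that were tested. Panc1 and BxPC3 are established cell lines from such tumours. They were measured on 6 Affymetrix arrays, with 1 control and 1 KDM6A-knockout array of Panc1 and 2 control and 2 knockout arrays of BxPC3. Per the labels' protocols, knockout cells were infected with a lentiCRISPR v2 virus whose guide targets KDM6A, were selected with puromycin and were cloned by limiting dilution. The labels call the controls wild-type for KDM6A, and they do not say whether these carried a vector. Panc1 was kept in DMEM and BxPC3 in RPMI medium. Neither the number of clones nor the origin of the replicate BxPC3 arrays is given, so p-values reflect array-to-array spread alone, and that spread could be technical.

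A replication origin is licensed in G1, when the origin recognition complex, CDC6 and CDT1 load the MCM helicase onto DNA. In S phase the helicase is activated with CDC45 and the GINS complex, and DNA polymerases then copy the strands with the clamp PCNA, its loader RFC and the single-strand binding protein RPA. Many of these genes are transcribed in late G1 by E2F factors once RB is phosphorylated by cyclin-dependent kinases, and CDKN1A encodes p21, an inhibitor of those kinases and of PCNA. KDM6A is a demethylase of lysine 27 of histone H3 in the COMPASS-like complex, and the series title links its loss to CDKN1A.

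Because many of these genes are known E2F targets, promoters that carry an E2F motif are shown first. Promoter windows were RefSeq's, on build GRCh38.p14, from 250 bases before to 50 bases after each gene's start, and 38 of the 45 genes had an entry. The motif was searched on both strands as TTTCCCGC, TTTCGCGC, TTTGCCGC or TTTGGCGC, and overlapping matches were merged into 1 stretch. At least 1 match was held by 22 of the 38 genes (57.9%), against 3.99% of 27305 genes with a window and 6.11% of the 11471 tested genes with a window. The sequences below are the 3 genes with the largest Panc1 difference among those with a match (CDC6, CDT1 and E2F2), E2F1 itself, which held 2 stretches, and POLA1, which had the lowest Panc1 difference and still held a match. Capitals mark the E2F matches.
CDC6 promoter, chr17:40287629-40287928, plus strand: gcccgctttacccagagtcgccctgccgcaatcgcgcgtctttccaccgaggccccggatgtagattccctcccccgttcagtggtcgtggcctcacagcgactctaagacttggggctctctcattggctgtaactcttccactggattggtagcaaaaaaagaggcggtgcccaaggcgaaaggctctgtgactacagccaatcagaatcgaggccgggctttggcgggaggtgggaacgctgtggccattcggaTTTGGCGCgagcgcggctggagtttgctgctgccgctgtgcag
CDT1 promoter, chr16:88803539-88803838, plus strand: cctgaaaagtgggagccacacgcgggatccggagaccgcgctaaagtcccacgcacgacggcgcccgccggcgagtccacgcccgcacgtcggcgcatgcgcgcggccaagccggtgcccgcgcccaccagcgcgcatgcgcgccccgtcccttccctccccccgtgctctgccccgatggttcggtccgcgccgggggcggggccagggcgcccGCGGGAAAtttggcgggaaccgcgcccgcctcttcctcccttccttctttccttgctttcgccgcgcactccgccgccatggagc
E2F2 promoter, chr1:23531184-23531483, minus strand: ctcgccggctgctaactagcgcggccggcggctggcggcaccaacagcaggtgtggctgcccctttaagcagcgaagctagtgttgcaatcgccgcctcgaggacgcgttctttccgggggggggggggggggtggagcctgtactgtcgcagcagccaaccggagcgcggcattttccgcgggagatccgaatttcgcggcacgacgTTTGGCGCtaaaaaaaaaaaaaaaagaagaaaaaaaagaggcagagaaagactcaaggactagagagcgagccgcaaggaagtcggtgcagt
E2F1 promoter, chr20:33686336-33686635, minus strand: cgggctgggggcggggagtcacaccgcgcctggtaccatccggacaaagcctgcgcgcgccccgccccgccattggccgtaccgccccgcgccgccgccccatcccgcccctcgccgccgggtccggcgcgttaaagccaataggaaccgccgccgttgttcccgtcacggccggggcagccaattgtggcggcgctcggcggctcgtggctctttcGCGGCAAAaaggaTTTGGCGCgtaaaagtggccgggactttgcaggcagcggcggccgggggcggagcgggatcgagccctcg
POLA1 promoter, chrX:24693668-24693967, plus strand: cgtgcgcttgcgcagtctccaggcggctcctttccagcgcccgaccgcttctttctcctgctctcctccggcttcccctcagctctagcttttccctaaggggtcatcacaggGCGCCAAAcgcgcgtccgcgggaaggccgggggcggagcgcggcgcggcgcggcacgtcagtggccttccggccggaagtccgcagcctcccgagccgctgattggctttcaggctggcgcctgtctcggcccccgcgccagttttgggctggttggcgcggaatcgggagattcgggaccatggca

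The cell cycle homology region, TTTGAA on either strand, is the motif known for genes of G2 and mitosis. None of the 38 replication promoters held it (0 of 38), against 18.2% of all genes with a window and 13.9% of tested genes. Among 24 mitosis genes listed for comparison, 18 had a window, of which 13 held TTTGAA and 1 held the E2F motif. Of 62 other genes linked to replication, 51 had a window, with the E2F motif in 16 and TTTGAA in 9. The 2 motifs can share the letters TTTG but no whole match. A match describes letters and not a binding site, and no binding was measured here.

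The knockout target was lower on the knockout arrays of both lines. KDM6A read 6.73 on the Panc1 control and 4.06 on the knockout array, and it fell by 0.79 on the log2 scale in BxPC3 (SE 0.12, adjusted p = 0.0329). Its probe set was not placed against the guide's cut, so this checks the labels only in part. CDKN1A read 8.48 and 7.45 in Panc1, and it fell by 1.14 on the log2 scale in BxPC3 (SE 0.07, adjusted p = 0.0036). The cytokeratins KRT8, KRT18 and KRT19 read between 11.7 and 13.5 on all 6 arrays, as epithelial cells do. In Panc1, KRT7 was at most 6.42, and CDH1 and EPCAM read 7.87 and 8.47 on the control and 5.78 and 7.54 on the knockout array. Over all 6 epithelial markers the mean level was 10.16 and 9.61 on the Panc1 control and knockout arrays and 12.3 to 12.4 in BxPC3. On none of the arrays did PTPRC, the pan-leukocyte marker, exceed the array median, nor did LYZ, LUM, COL1A2, COL3A1 or KDR. COL1A1, ACTA2, PDGFRB, CD3E and PECAM1 exceeded it on all 6 arrays, DCN and VWF on 4, CD14 on 3 and CDH5 on 2. CDH5, an endothelial cadherin, read 6.74 and 6.91 on the BxPC3 control arrays and fell by 2.19 on the log2 scale (SE 0.17, adjusted p = 0.00579). Over 7 fibroblast markers the mean was 4.64 and 4.86 in Panc1, and in BxPC3 5.33 and 5.19 on control against 4.93 and 4.91 on knockout arrays. The Panc1 means depend on the probe set of COL1A1. Its brightest differed by 0.36 in Panc1, and its others by -3.13, -0.82, 0.08 and 0.09. Over 4 immune markers the mean lay between 3.74 and 4.24. Over 4 endothelial markers it was 4.17 and 4.28 in Panc1, and 5.12 and 5.18 against 4.56 and 4.70 in BxPC3. The part of CDKN1A and of these markers in the results below was not tested. Since 2895 probe sets had exactly equal values on the 2 Panc1 arrays and 0 did between lines, the lines appear to have been summarised separately, and levels are compared only within a line.

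On the Panc1 knockout array 36 of 45 were higher than on the control array, where 48.7% of all tested genes were, with a median difference of 0.30 on the log2 scale, or 1.23-fold, against a median of 0 over all tested genes. In BxPC3 the median was 0.06, or 1.05-fold, against 0.00 over all tested genes, and 32 of 45 group means were higher in knockout, where 50.6% of tested genes were. Single arrays of the same genotype differed by medians of similar size. A difference of single arrays varies more, however, than one of 2-array means. BxPC3 control array 2 minus control array 1 had a median of 0.05 over the 45 genes, with 32 above 0, against 0.01 over all tested genes. Knockout array 2 minus knockout array 1 had a median of -0.06, with 15 above 0, against -0.04 over all tested genes. In BxPC3 none of the 45 genes passed the limma test at an adjusted p under 0.05 (0 called, 5 with an unadjusted p under 0.05), while 4.72% of tested genes did. Panc1 has 1 array per group, so its differences have no replicate check and no test. In bulk RNA, more cells in S phase and more RNA per cell cannot be told apart.

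The Panc1 differences were of moderate size. A difference of at least 0.32 upward on the log2 scale was seen for 21 of 45, against 14.5% of tested genes, and one of at least that size downward for 0 of 45, against 21.5% of tested genes. No gene of the 45 differed by 2-fold or more, as 3.86% of tested genes did. The differences ran from -0.21 for POLA1 to 0.85 for CDC6, with the middle of the list between 0.12 and 0.53 (quartiles). Tested genes within the same range of Panc1 levels had a median of -0.05, and 43.3% of them were above 0. Over the 45 genes the Panc1 difference had Pearson r = 0.01 and Spearman rho = 0.02 with the mean Panc1 level, a description across genes that share 2 arrays. Setting the median of tested genes equal on all arrays moved every Panc1 difference up by 0.20, and then gave 44 of 45 above 0, against 69.8% of tested genes, and a median of 0.50.

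**Figure D1:**
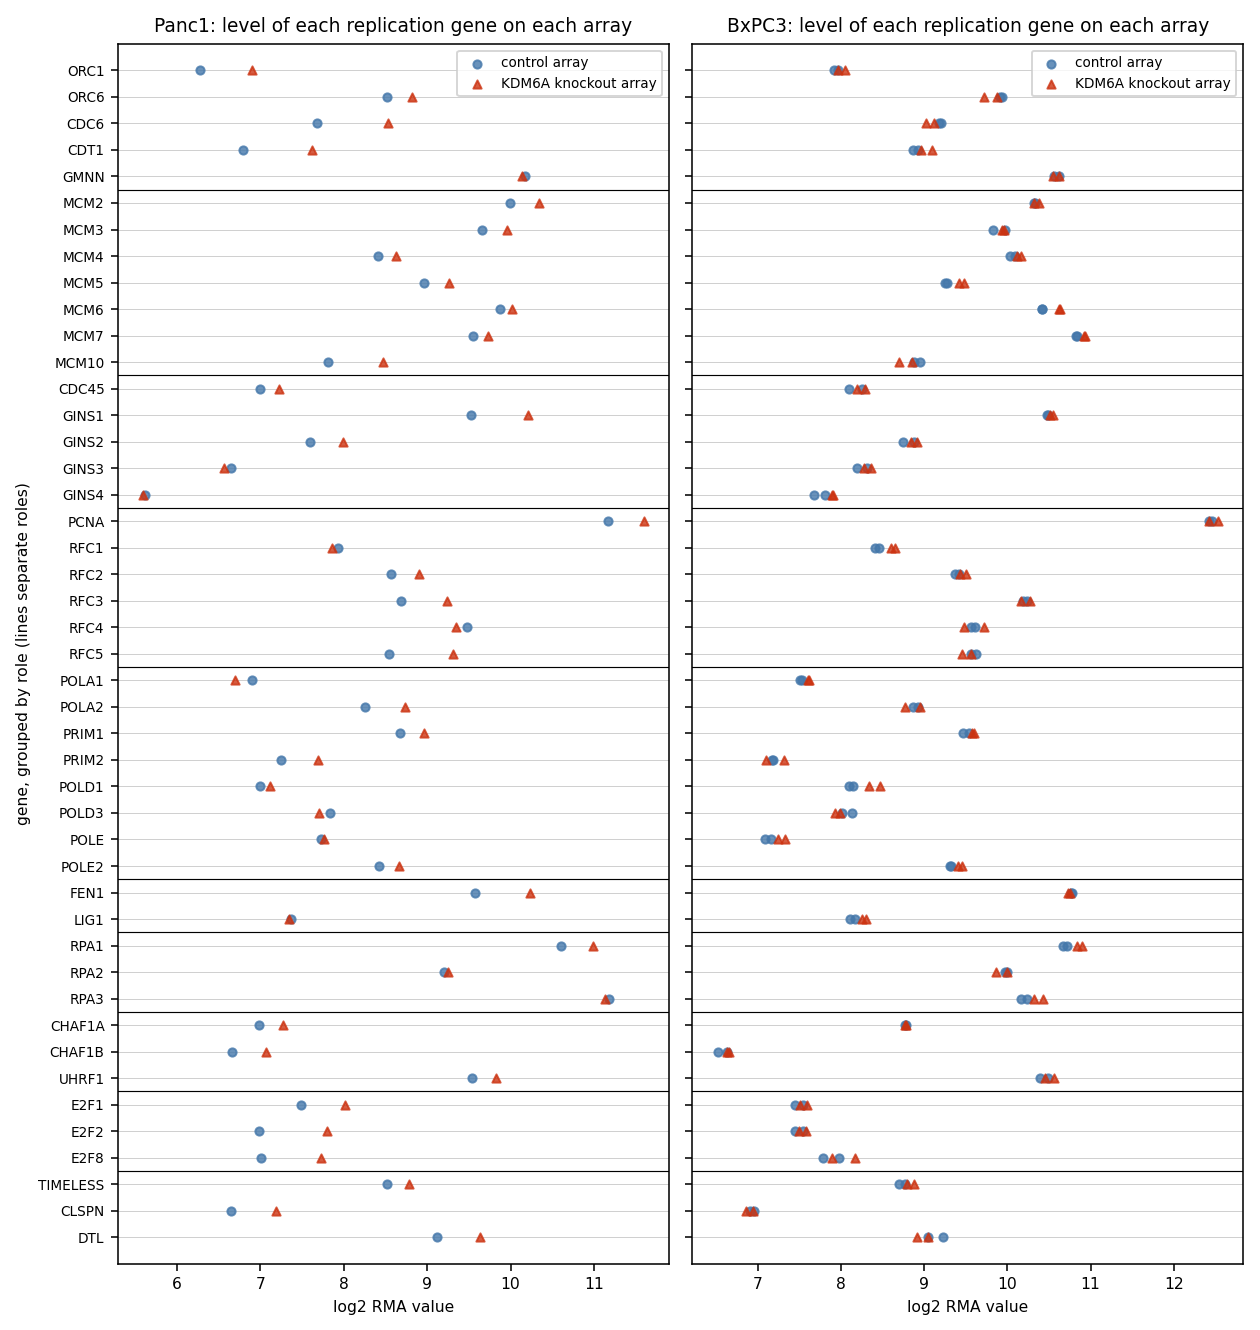
Log2 RMA value of each of the 45 genes (rows, grouped by role) on each Panc1 array (left, 1 control and 1 knockout) and each BxPC3 array (right, 2 control and 2 knockout); circles are control and triangles knockout arrays. In Panc1 the triangle lies to the right of the circle for 36 genes, and in BxPC3 the symbols lie close together for most genes.

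Of the origin licensing genes, CDC6 and CDT1 had the 2 largest Panc1 differences of the 45. CDC6, the ATPase that brings the helicase to the origin, read 7.68 on the Panc1 control and 8.53 on the knockout array (0.85, or 1.80-fold). In BxPC3, CDC6 read 9.20 and 9.18 on the control arrays against 9.12 and 9.03 after knockout (-0.12 ± 0.07, SE, adjusted p = 0.440). Both knockout arrays of BxPC3 were thus slightly below both controls, while the Panc1 knockout array was above its control. CDT1, the helicase loading factor, read 6.80 and 7.63 in Panc1, a difference of 0.83 or 1.78-fold. In BxPC3, CDT1 read 8.87 and 8.92 in control and 9.09 and 8.96 in knockout arrays (0.13 ± 0.08, adjusted p = 0.441). ORC1, the largest subunit of the origin recognition complex, read 6.28 and 6.90 in Panc1 (0.62), and 7.96 and 7.92 against 8.05 and 7.97 in BxPC3 (0.07 ± 0.07, adjusted p = 0.666). ORC6, another subunit, differed by 0.29 in Panc1 and by -0.12 ± 0.08 in BxPC3. The subunits outside the 45 genes were not higher as a group. ORC2, ORC3, ORC4 and ORC5 differed by -0.25, -0.41, 0.05 and -0.29 in Panc1. GMNN encodes geminin, the inhibitor of CDT1. It read 10.18 and 10.14 in Panc1 (-0.04) and 10.56 and 10.62 against 10.62 and 10.55 in BxPC3 (-0.00 ± 0.07, adjusted p = 1.00), where its groups overlapped.

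All 7 genes of the MCM helicase group were higher on the Panc1 knockout array, where 48.7% of tested genes were. They lay between 0.14 for MCM6 and 0.65 for MCM10. Outside the 45 genes, MCM8 and MCM9 differed by 0.25 and -0.46 in Panc1. MCM10, which activates the loaded helicase and is not part of the ring, read 7.82 and 8.47 in Panc1, or 1.57-fold. In BxPC3 MCM10 read 8.88 and 8.95 against 8.85 and 8.70 (-0.14 ± 0.08, adjusted p = 0.423). The 6 ring subunits MCM2 to MCM7 differed by 0.14 to 0.35 in Panc1. MCM2, MCM3 and MCM4 lay at 0.02, 0.04 and 0.08 in BxPC3. MCM6 read 10.42 and 10.41 on the BxPC3 control arrays and 10.64 and 10.62 on the knockout arrays. This difference of 0.21 ± 0.06 did not pass (unadjusted p = 0.0211, adjusted p = 0.165), but its arrays did not overlap, and in Panc1 MCM6 read 9.87 and 10.01. Among the 45 genes MCM6 was the 1 gene called when the variance prior followed expression (adjusted p = 0.0288). That prior called more tested genes than the main fit, and this call was a smaller share of the 45 than of all tested genes. MCM5 read 9.25 and 9.27 against 9.42 and 9.48 in BxPC3 (0.19 ± 0.07, adjusted p = 0.219) and 8.96 and 9.27 in Panc1 (0.30). MCM7 read 10.83 on both BxPC3 control arrays and 10.92 and 10.93 on the knockout arrays (0.10 ± 0.06, adjusted p = 0.484), and 9.55 and 9.73 in Panc1.

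CDC45 and the GINS complex bind the MCM ring to form the active helicase. GINS1 read 9.53 and 10.21 in Panc1, a difference of 0.68 or 1.60-fold, and 10.49 and 10.47 against 10.51 and 10.54 in BxPC3 (0.04 ± 0.07, adjusted p = 0.777). GINS2 differed by 0.39 in Panc1 and CDC45 by 0.23. GINS3 and GINS4 lay at -0.08 and -0.03 in Panc1, but other probe sets of these genes gave 0.27 for GINS3 and 0.19 and -0.23 for GINS4. The GINS4 probe set at 0.19 read 3.37 and 3.56 in Panc1, below the array medians. In BxPC3 these 5 genes lay between 0.04 and 0.16, and none passed.

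Of the sliding clamp and its loader, 4 of 6 genes were higher in Panc1, not far from the 48.7% of tested genes that were. PCNA, the clamp, read 11.17 and 11.60 in Panc1, a difference of 0.43 or 1.35-fold. In BxPC3 PCNA read 12.46 and 12.42 against 12.53 and 12.42 (0.04 ± 0.07, adjusted p = 0.841), with overlapping groups. The small loader subunits parted in Panc1. RFC5 read 8.54 and 9.31 there (0.77), RFC3 differed by 0.55 and RFC2 by 0.33, while RFC4 lay at -0.14. RFC5 read 9.56 and 9.63 against 9.56 and 9.45 in BxPC3 (-0.09 ± 0.08, adjusted p = 0.605). RFC2, RFC3 and RFC4 lay at 0.08, -0.00 and 0.01 in BxPC3. RFC1, the large subunit, read 7.93 and 7.86 in Panc1 (-0.07), and 8.40 and 8.46 against 8.64 and 8.60 in BxPC3 (0.19 ± 0.07, unadjusted p = 0.0357, adjusted p = 0.211).

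Among polymerase and primase genes 6 of 8 were higher in Panc1, where 48.7% of tested genes were, with a median of 0.18. The largest differences there were those of POLA2, the regulatory subunit of polymerase alpha (0.49), and PRIM2, the large primase subunit (0.45). POLA1, the catalytic subunit of polymerase alpha, had the lowest difference of the 45 genes in Panc1 (-0.21), where its control array read 6.91 and its knockout array 6.70. In BxPC3 POLA1, POLA2 and PRIM2 lay at 0.08, -0.04 and 0.03. PRIM1, the small primase subunit, read 8.67 and 8.96 in Panc1 (0.29) and 9.47 and 9.53 against 9.59 and 9.57 in BxPC3 (0.08 ± 0.07, adjusted p = 0.573). POLD1, the catalytic subunit of polymerase delta, had the largest BxPC3 difference of the 45 genes. It read 8.09 and 8.15 on control and 8.33 and 8.47 on knockout arrays, a difference of 0.28 ± 0.08 that did not pass (unadjusted p = 0.0158, adjusted p = 0.142). In Panc1 POLD1 read 6.99 and 7.12 (0.12). POLD3 gave 0.44 in Panc1 on its other probe set, against -0.13 on the brightest. POLE, POLE2 and POLD3 lay between -0.13 and 0.24 in Panc1 and between -0.12 and 0.16 in BxPC3.

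FEN1, the nuclease that trims Okazaki fragments, read 9.58 and 10.24 in Panc1 (0.66, or 1.58-fold). In BxPC3 FEN1 read 10.76 and 10.78 against 10.72 and 10.75 (-0.04 ± 0.06, adjusted p = 0.823). LIG1, the ligase that seals the same fragments, lay at -0.03 in Panc1 and 0.14 ± 0.07 in BxPC3. The RPA subunits differed among themselves. RPA1, the large subunit, read 10.60 and 10.98 in Panc1 (0.38) and 10.67 and 10.71 against 10.89 and 10.84 in BxPC3 (0.17 ± 0.07, unadjusted p = 0.0496, adjusted p = 0.250). RPA3, the small subunit, read 11.18 and 11.13 in Panc1 (-0.05) and 10.16 and 10.23 against 10.43 and 10.32 in BxPC3 (0.18 ± 0.08, adjusted p = 0.279). RPA2 lay at 0.04 in Panc1 and -0.06 ± 0.08 in BxPC3.

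The listed E2F factors, E2F1, E2F2 and E2F8, had a Panc1 median of 0.72. Of these, 3 of 3 were higher on the knockout array by 0.53 or more, where 48.7% of tested genes were higher at all. The E2F genes outside the list had smaller or negative differences. In Panc1, E2F3, E2F4, E2F5 and E2F6 differed by 0.23, 0.29, 0.10 and 0.18, and E2F7 by -0.78. E2F2, an activator, read 6.99 and 7.80 in Panc1 (0.82, or 1.76-fold) and 7.55 and 7.44 against 7.58 and 7.50 in BxPC3 (0.04 ± 0.08, adjusted p = 0.813). E2F8, a repressor of the family that is itself made in S phase, read 7.01 and 7.72 in Panc1 (0.72) and 7.78 and 7.97 against 8.17 and 7.89 in BxPC3 (0.15 ± 0.12, adjusted p = 0.569). E2F1 differed by 0.53 in Panc1, from 7.49 to 8.02, and by 0.06 ± 0.08 in BxPC3. In BxPC3 the control and knockout arrays overlapped for each of these 3 genes.

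Of the 45 genes, those that guard the fork and rebuild chromatin behind it were also higher in Panc1, 6 of 6, where 48.7% of tested genes were. Outside the 45, 7 genes of chromatin and methylation at the fork had a Panc1 median of 0.04, with 5 above 0. Other fork and checkpoint genes varied: CHTF18, ATR and TOPBP1 lay at -0.19, -0.04 and -0.01, and CHEK1 and TIPIN at 0.43 and 0.56. CLSPN encodes claspin, the adaptor that lets the kinase ATR activate CHEK1. It read 6.66 and 7.20 in Panc1 (0.54) and 6.95 and 6.90 against 6.94 and 6.86 in BxPC3 (-0.03 ± 0.07, adjusted p = 0.883). DTL, the adaptor through which a ubiquitin ligase removes CDT1 and p21 in S phase, read 9.12 and 9.63 in Panc1 (0.51). In BxPC3 DTL read 9.05 and 9.23 against 9.04 and 8.92, the lowest difference of the 45 genes there (-0.16 ± 0.09, adjusted p = 0.429). UHRF1, which brings the maintenance methyltransferase to new DNA, read 9.54 and 9.83 in Panc1 (0.29) and 10.39 and 10.49 against 10.56 and 10.45 in BxPC3 (0.07 ± 0.08, adjusted p = 0.710). TIMELESS, a fork protection factor, and CHAF1A and CHAF1B, histone chaperone subunits, differed by 0.27, 0.29 and 0.41 in Panc1 and by 0.11, -0.00 and 0.06 in BxPC3.

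The precision in BxPC3 can be read from its errors. Standard errors of the 45 differences ran from 0.06 to 0.12, and their 95% intervals all lay between -0.40 and 0.48 on the log2 scale. Adjusted p-values from limma lay between 0.142 and 1. Both knockout arrays were above both control arrays for 19 of 45 genes, against 23.9% of tested genes, and below both for 6 of 45, against 26.8% of tested genes. The replicate arrays themselves differed by -0.28 to 0.18 over the 45 genes in knockout and by -0.11 to 0.19 in control. A test over both lines with cell line as a term called none of the 45 (0 called, 4 with an unadjusted p under 0.05, adjusted p between 0.356 and 0.967), where 0.0834% of tested genes passed.

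**Figure D2:**
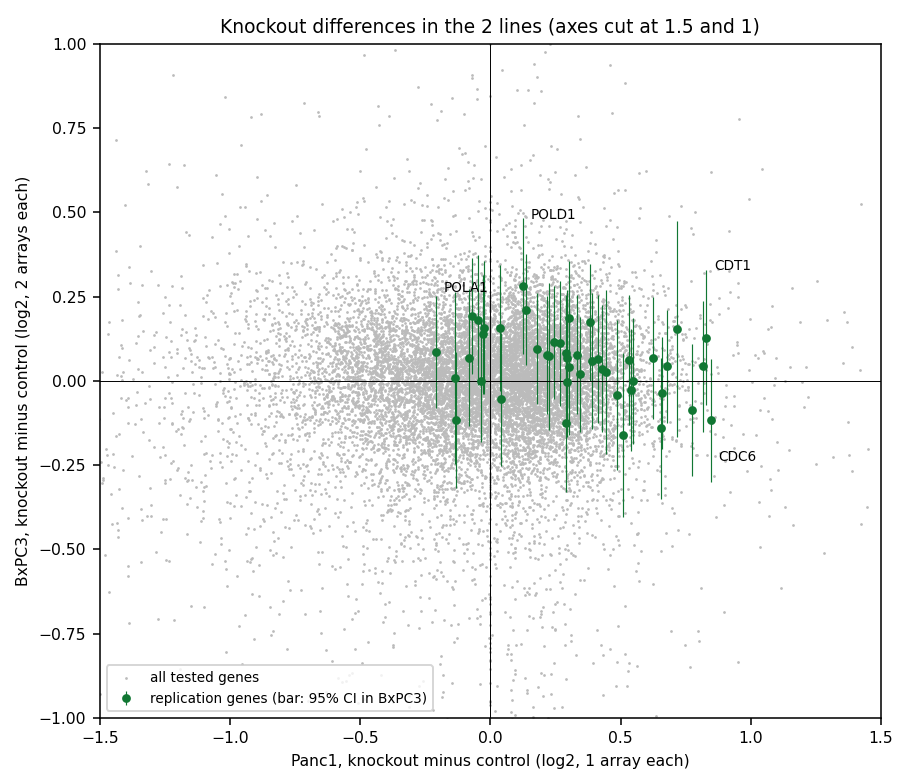
Knockout minus control difference (log2) in Panc1 (horizontal, 1 array each) against BxPC3 (vertical, 2 arrays each), for all 14387 tested genes (grey, those beyond the axes not shown) and the 45 replication genes (green, with 95% confidence intervals in BxPC3 from limma). The green points spread from -0.21 to 0.85 along Panc1 and from -0.16 to 0.28 along BxPC3.

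The lines were then set against each other directly. The difference between their knockout differences passed the interaction test in limma for 9 of 45 genes (20.0%), against 14.0% of tested genes, a share not far above the background. All 9 lay in the direction of a larger Panc1 difference, in which 4.92% of tested genes passed. Panc1 has no replicate, so these p-values rest on the spread between BxPC3 arrays alone and cannot separate the knockout from a single Panc1 array or clone. The 9 genes were CDC6 (0.96 ± 0.12, adjusted p = 0.0146), RFC5 (0.86 ± 0.13, 0.0215), MCM10 (0.80 ± 0.14, 0.0287), E2F2 (0.78 ± 0.13, 0.0261), CDT1 (0.70 ± 0.14, 0.0340), FEN1 (0.70 ± 0.11, 0.0239), GINS1 (0.64 ± 0.11, 0.0285), CLSPN (0.57 ± 0.12, 0.0432) and ORC1 (0.56 ± 0.12, 0.0452). RFC3 (0.55, adjusted p = 0.0507) and DTL (0.67, adjusted p = 0.0568) did not pass, with adjusted p just above the threshold. Leaving out BxPC3 control array 1 or control array 2 gave 0 of 45, where 1.72% and 1.63% of tested genes passed. Keeping all dim probe sets in the test gave 3 of 45, against 5.27%. Signs were shared by 27 of 45 genes, of which 25 were above 0 in both lines and 2 below. Across the 45 genes the differences of the lines had Pearson r = -0.33 and Spearman rho = -0.37, and across all tested genes Pearson r = 0.05; genes are not independent replicates.

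**Figure D3:**
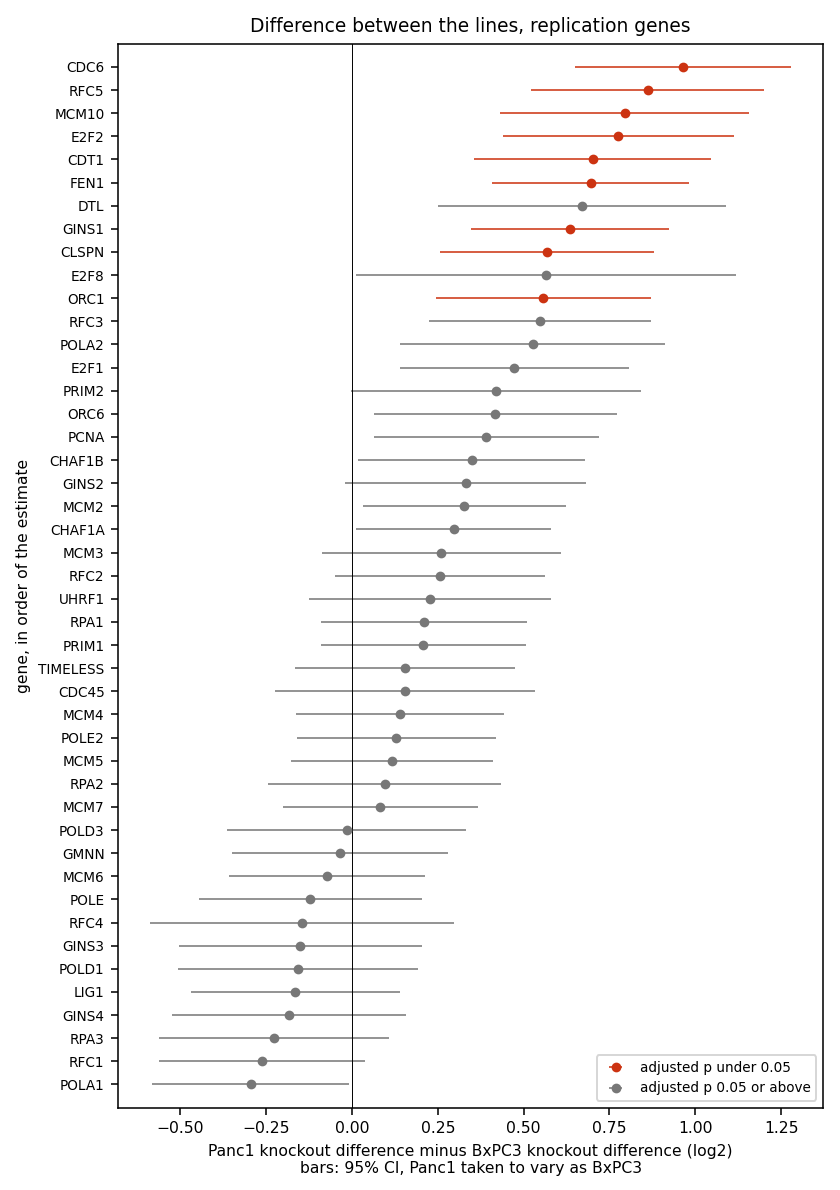
Panc1 knockout difference minus BxPC3 knockout difference (log2) for each of the 45 genes in order of the estimate, with 95% confidence intervals from limma that take Panc1 to vary as BxPC3. The 9 genes with an adjusted p under 0.05 (red) run from ORC1 at 0.56 to CDC6 at 0.96, and POLA1 is lowest at -0.29.

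Other probe sets bear on single genes more than on the list. Of the 45 genes, 24 had further probe sets, 41 in all, of which 37 were above the array median on at least 1 array. In Panc1, 30 of these 37 were above 0, with a median of 0.28, and 29 had the sign of the gene's brightest probe set. For MCM10 the other probe sets gave 0.74 and 0.81 in Panc1, for CDC6 0.67 and for FEN1 0.47, close to the values above. For RFC5 they gave 0.29 and -0.02 and for CDT1 0.28, well below 0.77 and 0.83, so the Panc1 values of RFC5 and CDT1 depend on the probe set. E2F2 gave 0.31 on its other probe set above the median, CLSPN 0.30 and 0.50, and RFC3 0.12 and 0.46. The CLSPN probe set at 0.50 was dim in Panc1, at 4.23 and 4.73. The sign was opposite on a further probe set for 7 genes, which were GINS3, GINS4, POLD3 and RFC5 as given above, MCM6 (-0.38), CHAF1A (-0.13) and RPA1 (-0.10). Of these further probe sets, those of GINS4 (3.37 and 3.56), MCM6 (4.36 and 3.98) and CHAF1A (3.33 and 3.20) were dim on both Panc1 arrays. The brightest probe sets of 4 genes end in _x_at and of 14 in _s_at, which can hybridise to similar transcripts. In BxPC3, 24 of the 37 other probe sets had the sign of the gene's brightest one. RFC1 gave 0.05 there on its other probe set above the median, against 0.19, and RPA1 gave 0.13 and -0.18, against 0.17. MCM5 gave 0.15 against 0.19, and MCM6 0.19 against 0.21.

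The 22 genes with a match had a Panc1 median of 0.37 and a BxPC3 median of 0.05, and the 16 with a window but no match had 0.31 and 0.07. FEN1, MCM10, ORC1 and RFC5, without a match in this window, were among the 9 genes named above, and GMNN and LIG1, with a match, lay at -0.04 and -0.03 in Panc1.

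The neighbouring parts of the cell cycle give a frame for these values. Of 62 other replication-linked genes listed for this purpose 59 were tested, with a median of 0.20 in Panc1 and 0.03 in BxPC3. Above 0 in Panc1 were 44 of 59, where 48.7% of tested genes were. The largest Panc1 differences among them were those of RRM2, a ribonucleotide reductase subunit (1.15), CDC25A, the phosphatase that activates CDK2 (0.90), E2F7, a repressor (-0.78), and RBL2, the pocket protein p130 (-0.76). In BxPC3 1 of the 59 passed the limma test, where 4.72% of tested genes did. This was the repressor E2F5, which fell by 1.15 on the log2 scale (SE 0.12, adjusted p = 0.0128) and differed by 0.10 in Panc1. TK1, thymidine kinase (0.34 ± 0.07, adjusted p = 0.0611), TFDP2, a partner of E2F (0.32 ± 0.08, adjusted p = 0.105), and TOP1, topoisomerase I (-0.30 ± 0.06, adjusted p = 0.0836), did not pass. The 24 mitosis genes had a median of 0.39 in Panc1 and 0.18 in BxPC3, with 20 and 22 above 0, against 48.7% and 50.6% of tested genes. In BxPC3 both knockout arrays were above both controls for 17 of these 24, against 23.9% of tested genes. Of the mitosis genes 0 of 24 passed in BxPC3, where 4.72% of tested genes did. Whether the replication and mitosis lists differ in BxPC3 was not tested.

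**Figure D4:**
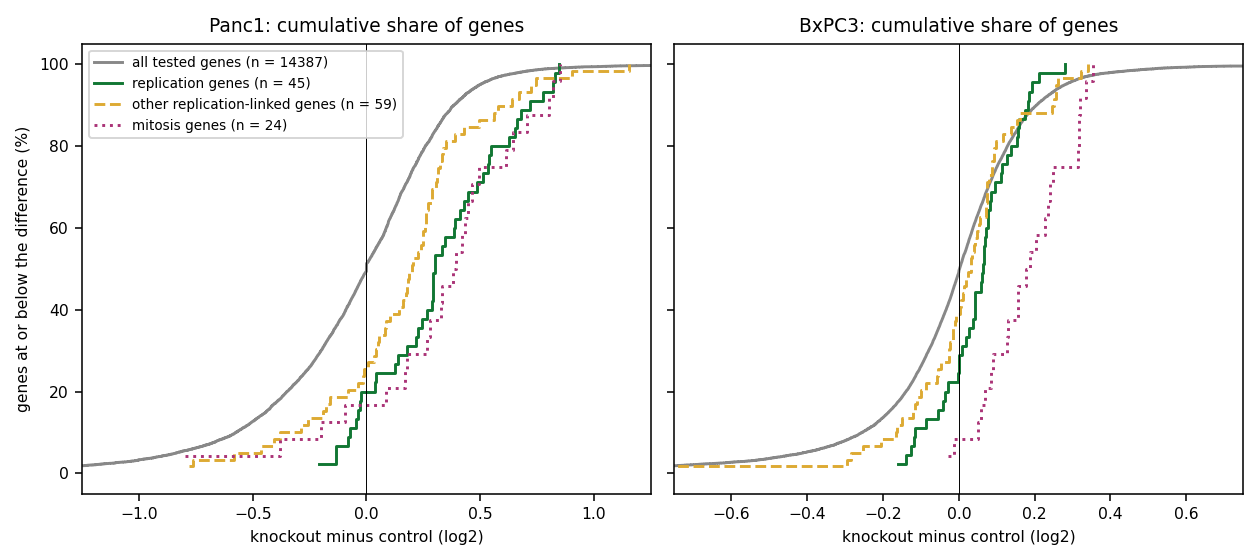
Cumulative share of genes (percent, vertical) at or below each knockout minus control difference (log2, horizontal) in Panc1 (left) and BxPC3 (right), for all tested genes, the 45 replication genes, 59 other replication-linked genes and 24 mitosis genes. In Panc1 the 3 lists lie to the right of all genes, with medians of 0.30, 0.20 and 0.39 against 0, and in BxPC3 the mitosis list lies farthest right, with a median of 0.18.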

How the data were processed

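The authors deposited log2 values for 54613 probe sets on 6 arrays, from RMA in the affy package per the submitters' processing notes (versions: not given in the sources used here). This method subtracts background and equalises probe distributions within a run, which removes shifts common to most genes. Per the labels' protocols, biotin-labelled RNA was made with a 3' IVT kit.

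A gene was read from its brightest single-symbol probe set (41091 had 1 symbol, 41037 of them matched to RefSeq by gene identifier) and tested if that set exceeded the array median on at least 1 array. Knockout and control were compared in limma 3.58.1 (R 4.3.3) with 1 mean for each of 4 groups, 2 residual and 3.08 prior degrees of freedom, and Benjamini-Hochberg adjustment over all 14387 genes at 0.05. An additive fit (line and genotype) and an interaction contrast were added. Panc1 differences have no test. The script was checked on simulated data. Errors are SE, and the number of arrays limits precision.

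The genes and lists were chosen with earlier results of these data known. Full values are given for genes past a threshold, the 6 smallest p in BxPC3, the 6 largest Panc1 differences and the brightest gene of each role. Alternatives covered filters, probe sets, scaling, the variance prior, pairing and left-out arrays, and cyclic loess and crossed pairing were chosen after seeing the data.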

Additional observations from a re-analysis of the deposited data

Results flagged for a closer look

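The interaction test between the lines passed for 9 of the 45 genes (20.0%), against 14.0% of tested genes, each with the larger value in Panc1. Its p-values take their spread from BxPC3 alone, so they do not show that the lines respond differently to the knockout. Panc1 minus BxPC3 was 0.96 for CDC6, 0.86 for RFC5, 0.80 for MCM10, 0.78 for E2F2, 0.70 for CDT1 and 0.70 for FEN1. It was 0.64 for GINS1, 0.57 for CLSPN and 0.56 for ORC1. Of 13 alternatives, CDC6 passed in 11, FEN1 in 10, MCM10 and RFC5 in 9, GINS1 and ORC1 in 8, and CDT1, E2F2 and CLSPN in 7. With probe sets averaged CLSPN gave 0.14, RFC5 0.35, E2F2 0.38 and CDT1 0.43. Panc1 has 1 array per group, so its clone, culture and array cannot be told apart from the knockout.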

How the results depend on the processing

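No replication gene passed in BxPC3 under any alternative other than the variance prior that follows expression, which called 1. Calls over all genes in BxPC3 numbered 445 with no filter, 1317 with that prior and 89 to 610 with an array left out, with 94 and 89 without control array 1 or 2, and 318 without knockout array 2. The Panc1 median was 0.50 with centred arrays, 0.37 with quantile normalization and 0.35 with cyclic loess, and 33 genes differed by at least 0.32 upward with centred arrays, where 35.1% of tested genes did. The BxPC3 median was 0.096 with quantile normalization and 0.047 to 0.100 with an array left out. With probe sets averaged, 6 of the 45 genes passed the interaction test (13.3%), below the 15.1% of tested genes that did. The stricter filter gave 11 (19.4% of tested genes) and cyclic loess 12 (19.0%). Interaction calls among the 45 numbered 3 with no filter (5.27% of tested genes), 16 with centred arrays (20.8%), 15 with quantile normalization (19.1%), 16 with the prior that follows expression (23.1%) and 0 to 12 with an array left out (1.63% to 23.6%). Other replication-linked genes called in BxPC3 numbered 2 with the stricter filter, 2 with averaged probe sets, 2 with centred arrays, 3 with quantile normalization, 3 with cyclic loess and 7 with the prior that follows expression. Calls over all genes also changed with the setting (1317 with that prior), so these counts are not a result about these genes.

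Replicate numbers are shared by the BxPC3 groups, but nothing in the labels says that they pair arrays, and deviations of same-numbered arrays correlated at -0.17. With the replicate block 384 genes were called, 0 replication genes in BxPC3, and 1 in the interaction (5.92% of tested genes). With crossed numbers the paired counts were 455, 0 and 4. The last was 8.89% of the replication genes, against 9.22% of tested genes.

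Small BxPC3 differences that never passed changed sign: RFC5 (0.0040) and CLSPN (0.075) with averaged probe sets, CLSPN (0.0049), FEN1 (0.018) and GMNN (0.052) with quantile normalization, and GMNN with centred arrays (0.021) and cyclic loess (0.018). Among genes given in full, ranges with an array left out crossed 0 for E2F2 (-0.0094 to 0.096), GMNN (-0.037 to 0.036), PCNA (-0.018 to 0.091) and CLSPN (-0.067 to 0.012). A further 11 of the 45 genes changed sign in at least 1 fit, most often RFC3 and CHAF1A (6 of 15 fits each), with values from -0.13 to 0.15. The cause of these changes was not tested. The 2 arrays per BxPC3 group and 1 per Panc1 group limit the precision.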
